A study of Mus musculus with 4 samples.

Results

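The 10 genes described here carry the central steps of MHC class I antigen presentation in the mouse. They were chosen by symbol, as the rows of the deposited count table whose GENCODE vM21 symbol is B2m, Psmb8, Psmb9, Psmb10, Tap1, Tap2, Tapbp, H2-K1, H2-D1 or Nlrc5, and all 10 were present among 55421 gene identifiers. The choice was made with earlier results of these data known. Of the 10 members, 8 were among the 14427 genes that passed the filter on low counts, and Psmb8 and Nlrc5 did not. The libraries came from E14 embryonic stem cells of 129/Ola background, labelled as blastocyst tissue and grown on gelatin in medium with serum and LIF. There were 2 libraries of cells in which the miR-290-295 microRNA cluster was knocked out (KO) and 2 of wild-type cells (WT). Each pair is described as biological duplicates, but whether the KO libraries came from separate clones is not stated, so p-values measure only the spread between these 4 libraries.

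Class I molecules show peptides from inside the cell to T cells and natural killer cells. The peptides are cut by the proteasome, whose catalytic subunits can be replaced by the interferon-inducible immunosubunits Psmb8, Psmb9 and Psmb10, and are pumped into the endoplasmic reticulum by the Tap1-Tap2 transporter. There tapasin (Tapbp) holds empty class I molecules at the transporter, and a peptide is loaded onto a heavy chain such as H2-K or H2-D, which pairs with the light chain beta-2 microglobulin (B2m). Nlrc5 is a transcriptional activator of these genes, and embryonic stem cells are known for low class I display.

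Of the 8 members tested, 3 were lower in KO, namely Psmb9 by 4.59-fold, Tap1 by 2.91-fold and B2m by 2.28-fold. The heavy chains H2-K1 and H2-D1 did not pass the test, and neither did Psmb10, Tap2 or Tapbp. The test was edgeR's quasi-likelihood F test, and a gene was called at a Benjamini-Hochberg adjusted p under 0.05 over all 14427 genes. At this threshold 4.96% of all tested genes were called lower and 7.42% higher. No member was called higher (0 of 8), and 0 were called higher by DESeq2. At an unadjusted edgeR p under 0.05, 1 member (Tapbp) was higher and 5 were lower, against 2201 and 1869 of all 14427 tested genes. The median log2 fold change, KO over WT, was -0.98 over the 8 tested members and -0.0061 over all tested genes. Both KO libraries lay below both WT libraries for 5 of the 8 members, against 28.8% of all tested genes. They lay above them for 1, against 29.2%. Because the members were chosen with earlier results of these data known, these comparisons with all genes are descriptive only.

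The library totals ran from 9925557 to 12726123 counts, so that 3 counts corresponded to between 0.236 and 0.302 CPM (counts per 1000000 counts of the library). The knockout itself was visible in the table: over 7 microRNA genes on the cluster's strand, both KO libraries held 0 counts, while WT libraries 1 and 2 held 88 and 39. All 8 embryonic stem cell markers examined were detected, with summed levels of 3570 and 3600 CPM in KO and of 3370 and 3610 CPM in WT. In bulk RNA, fewer cells that express a gene and less of its RNA per cell cannot be told apart.

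The cluster encodes 17 mature microRNAs in the RefSeq table, of which 5 carry the seed family that begins AAGUGC. Their mature sequences are shown because the members were searched for matches to this seed (RefSeq, GRCm38.p6, written 5′ to 3′, with bases 2 to 8 in capitals).
mmu-miR-290a-3p: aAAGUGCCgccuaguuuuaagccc
mmu-miR-291a-3p: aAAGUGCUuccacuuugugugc
mmu-miR-291b-3p: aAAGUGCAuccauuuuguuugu
mmu-miR-294-3p: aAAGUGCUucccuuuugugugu
mmu-miR-295-3p: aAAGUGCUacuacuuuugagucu
The microRNAs miR-291a-3p, miR-294-3p and miR-295-3p share the seed AAGUGCU, while miR-290a-3p and miR-291b-3p differ from them in its last base. The longest annotated 3′ UTR of each member was searched for AGCACTT, the complement of the seed AAGUGCU. It was also searched for GCACTTA, the complement of AAGUGC with an A after it. AGCACTT does not pair with the last seed base of miR-290a-3p and miR-291b-3p. None of the 10 members held either of them (0 of 10), against 2606 of 12491 tested genes with an annotated 3′ UTR (20.9%). The shorter word GCACTT was also found in 0 of the 10. These UTRs ran from 55 bases for Psmb10 to 1197 bases for Nlrc5, so the members differ widely in the length searched.

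Among the immunoproteasome subunits, Psmb9 (LMP2), which takes the place of Psmb6, had the largest fold change of the 8 tested members. Psmb9 (ENSMUSG00000096727, chr17:34181987-34187764, minus strand, GRCm38) held 20 and 11 counts in KO libraries 1 and 2, and 66 and 62 in WT libraries 1 and 2. These are 1.57 and 0.935 CPM in KO and 5.43 and 6.25 CPM in WT. Both WT libraries were above both KO libraries, and the groups did not overlap. The group levels were 1.25 ± 0.45 CPM (SD, n = 2) in KO and 5.84 ± 0.58 CPM (SD, n = 2) in WT. Psmb9 had a log2 fold change of -2.20 with a standard error of 0.46 (95% interval -3.24 to -1.16, edgeR adjusted p = 0.0169). Any KO library set against any WT library gave a log2 difference between -2.74 and -1.79. The call was lost without KO library 2, where the log2 fold change was -1.88 and the adjusted p 0.0921.

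Psmb6, the standard subunit that Psmb9 replaces, had 264 CPM in both KO libraries and 286 and 338 CPM in WT, a log2 fold change of -0.24 (edgeR adjusted p = 0.319). Within each library, which does not depend on the scaling between libraries, Psmb9 had 5.95 and 3.55 counts per 1000 Psmb6 counts in KO and 19.0 and 18.5 in WT. The balance of the immunosubunit to its standard counterpart was thus lower in both KO libraries than in both WT libraries. With 2 libraries a group the smallest p an exact permutation test can give is 0.333, so no p is attached to these ratios.

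Psmb10 (MECL-1), the immunosubunit that takes the place of Psmb7, held 252 and 196 counts in KO and 316 and 366 in WT. Psmb10 (ENSMUSG00000031897, chr8:105935735-105938444, minus strand) thus had 19.8 and 16.7 CPM in KO and 26 and 36.9 CPM in WT. All KO values were below all WT values, with group levels of 18.2 ± 2.22 CPM (SD, n = 2) and 31.4 ± 7.7 CPM (SD, n = 2). On the log2 scale Psmb10 differed by -0.78 with a standard error of 0.24 (95% interval -1.31 to -0.24), and it did not pass the test (edgeR adjusted p = 0.0626). The adjusted p of Psmb10 was 0.0261 with no filter on low counts and 0.0102 without WT library 1, so its call turned on these choices. Psmb7 itself had a log2 fold change of -0.49 (edgeR adjusted p = 0.0544), and the counts of Psmb10 per 1000 counts of Psmb7 overlapped between groups, at 86.7 and 67.0 in KO and 83.2 and 102 in WT.

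Psmb8 (LMP7), the immunosubunit that takes the place of Psmb5, was close to the limit of detection. Psmb8 (ENSMUSG00000024338, chr17:34197721-34201454, plus strand) held 2 and 4 counts in KO and 0 and 1 in WT. The exact 95% Poisson intervals of these counts were 0.242 to 7.22 and 1.09 to 10.2 in KO, and 0 to 3.69 and 0.0253 to 5.57 in WT, and they overlap. The ratio of the pooled levels, KO over WT, was 5.41 with a counting interval of 0.657 to 249. A difference of Psmb8 between KO and WT was therefore not detectable at this depth. Such intervals reflect counting error alone, because without molecular identifiers each read is not an independent molecule.

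Of the peptide transporter's subunits, Tap1 was lower in KO and Tap2 did not pass the test. Tap1 (ENSMUSG00000037321, chr17:34187553-34197225, plus strand) held 26 and 24 counts in KO and 68 and 63 in WT. These are 2.04 CPM in each KO library, and 5.59 and 6.35 CPM in WT. The KO libraries agreed closely, and both lay below both WT libraries, with group levels of 2.04 ± 0.00217 CPM (SD, n = 2) and 5.97 ± 0.535 CPM (SD, n = 2). The fitted log2 fold change of Tap1 was -1.54 with a standard error of 0.40 (95% interval -2.44 to -0.63, edgeR adjusted p = 0.0375). Its size hardly moved when a library was left out (-1.61 to -1.47), but the adjusted p rose to 0.165 and 0.163 when KO library 1 or 2 was left out, and to 0.0627 for WT library 2.

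Tap2, the other chain of the transporter, had fewer counts. Tap2 (ENSMUSG00000024339, chr17:34203527-34216321, plus strand) held 12 and 7 counts in KO and 19 and 27 in WT. In CPM these were 0.943 and 0.595 in KO against 1.56 and 2.72 in WT, with no overlap of the groups. Its log2 fold change was -1.44 with a standard error of 0.59 (95% interval -2.77 to -0.11), and the call was not made (edgeR adjusted p = 0.146). The interval of Tap2 holds the estimates of both Tap1 and Psmb9, so these counts do not separate the subunits in size of change.

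Tapbp (tapasin), which bridges the transporter and the empty class I molecule, was the only tested member whose KO libraries were both above the WT libraries. Tapbp (ENSMUSG00000024308, chr17:33915899-33929292, plus strand) held 291 and 379 counts in KO and 235 and 153 in WT, or 22.9 and 32.2 CPM against 19.3 and 15.4 CPM. Its log2 fold change was 0.66 with a standard error of 0.25 (95% interval 0.09 to 1.23), and it did not pass the test (edgeR adjusted p = 0.121). Within each library there were 8.93 and 6.33 Tap1 counts per 100 Tapbp counts in KO, and 28.9 and 41.2 in WT. The gene Zbtb22 overlaps Tapbp on the same strand over 3422 bases and held 228, 239, 156 and 137 counts in KO libraries 1 and 2 and WT libraries 1 and 2, so the division of reads between them is uncertain.

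B2m, the light chain that nearly all class I molecules need to reach the cell surface, was lower in KO. B2m (ENSMUSG00000060802, chr2:122147686-122153083, plus strand) held 124 and 169 counts in KO and 297 and 306 in WT. These are 9.74 and 14.4 CPM in KO and 24.4 and 30.8 CPM in WT, and the groups did not overlap. The group levels were 12.1 ± 3.27 CPM (SD, n = 2) in KO and 27.6 ± 4.53 CPM (SD, n = 2) in WT. The log2 fold change of B2m was -1.19 with a standard error of 0.26 (95% interval -1.79 to -0.60, edgeR adjusted p = 0.0205). The call was lost without KO library 1, where the log2 fold change was -0.93 and the adjusted p 0.154. All of B2m lies within the span of Patl2 on the opposite strand, which held 62, 30, 50 and 29 counts in KO libraries 1 and 2 and WT libraries 1 and 2, and the strand setting of the counting is not given in the sources used here.

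The classical heavy chains stood apart from B2m in that their groups overlapped. H2-K1 (ENSMUSG00000061232, chr17:33996017-34000347, minus strand) held 394 and 303 counts in KO and 318 and 436 in WT, or 31.0 and 25.8 CPM against 26.1 and 43.9 CPM. WT library 2 was the highest, while WT library 1 lay between the KO libraries. For H2-K1 the log2 fold change was -0.30 with a standard error of 0.26 (95% interval -0.87 to 0.28, edgeR adjusted p = 0.506), and its sign turned without WT library 2 (0.10).

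H2-D1 (ENSMUSG00000073411, chr17:35262730-35267499, plus strand) held 354 and 333 counts in KO and 250 and 294 in WT. In CPM these were 27.8 and 28.3 in KO, inside the range of 20.6 to 29.6 in WT. For H2-D1 the log2 fold change was 0.17 with a standard error of 0.23 (95% interval -0.34 to 0.68, edgeR adjusted p = 0.679), and its sign turned without WT library 1 (-0.06). The 95% intervals exclude a fall of either heavy chain as large as the estimate for B2m. For each 100 counts of the 2 heavy chains together, B2m had 16.6 and 26.6 counts in KO and 52.3 and 41.9 in WT. H2-K1 and H2-D1 are paralogs of each other and of other class I chains, the annotation is of C57BL/6J mice rather than 129/Ola, and how shared reads were counted is not given, so the values of single heavy chains are uncertain.

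**Figure D1:**
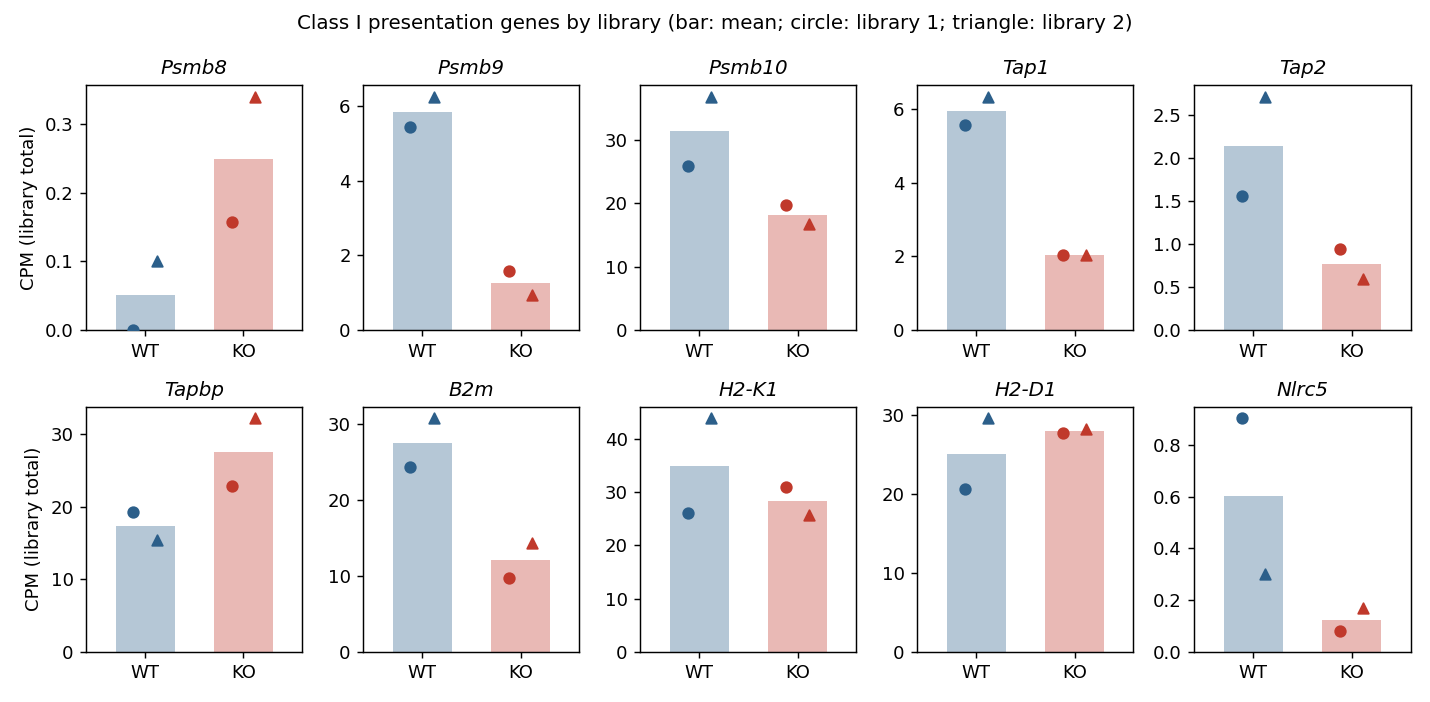
Levels of the 10 members in CPM, 1 panel a gene with its own linear axis from 0, with a bar at the mean of each group, circles for library 1 and triangles for library 2. Psmb9, Tap1 and B2m lie lower in both KO libraries than in both WT libraries, while H2-K1 and H2-D1 overlap between the groups.

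**Figure D2:**
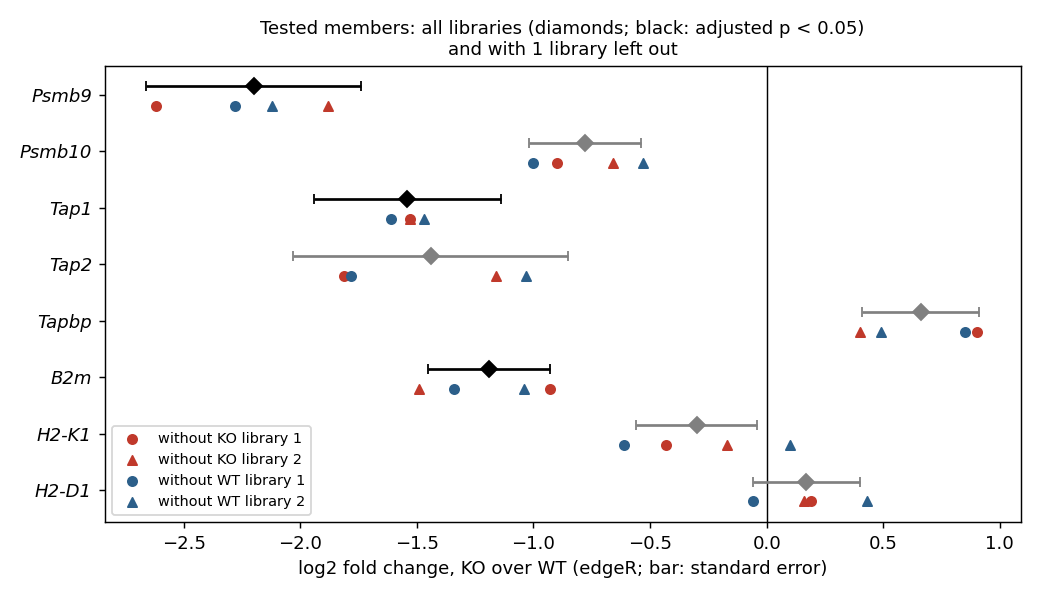
Log2 fold change of the 8 tested members, KO over WT, with all libraries (diamonds with standard errors, black where the adjusted p is under 0.05) and with each library left out in turn (circles and triangles). Psmb9, Psmb10, Tap1, Tap2 and B2m stay below 0 and Tapbp above it in every fit shown, whereas H2-K1 and H2-D1 cross 0.

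Nlrc5, the class I transactivator, was also near the floor. Nlrc5 (ENSMUSG00000074151, chr8:94434356-94527272, plus strand) held 1 and 2 counts in KO and 11 and 3 in WT. Most of the WT counts came from WT library 1, and the exact Poisson interval of WT library 2 (0.619 to 8.77) overlaps those of both KO libraries (0.0253 to 5.57 and 0.242 to 7.22). The ratio of the pooled levels, WT over KO, was 5.17 with a counting interval of 1.44 to 28.1, which leaves out the spread between libraries. In the fit with no filter the log2 fold change of Nlrc5 was -2.22 (edgeR adjusted p = 0.332), so a difference between the groups did not hold up.

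Psmb9 and Tap1 are neighbours that are read in opposite directions, and their annotated ends overlap by 212 bases. In RefSeq their starts are 226 bases apart, at 34187330 for Psmb9 and 34187556 for Tap1 on chromosome 17, and their promoter windows share 275 bases. The window of Tap1 is printed because both called genes of the locus lie across it (chr17:34187306-34187605, plus strand, GRCm38.p6, RefSeq, 250 bases before to 50 after the start). The capitals mark the complement of the Y box letters ATTGG, the binding motif of the factor NF-Y.
Tap1 promoter: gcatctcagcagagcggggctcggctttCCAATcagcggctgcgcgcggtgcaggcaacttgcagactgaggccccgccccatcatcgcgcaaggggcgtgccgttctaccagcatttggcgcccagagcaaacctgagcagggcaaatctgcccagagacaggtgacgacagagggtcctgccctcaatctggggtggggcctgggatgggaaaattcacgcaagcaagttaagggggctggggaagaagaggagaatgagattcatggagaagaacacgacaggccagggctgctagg
This Y box match at 34187334 to 34187338 falls in the windows of both genes. The window of B2m (chr2:122147437-122147736, plus strand) is shown beside it because B2m is the called member outside the MHC. Its capitals mark a match to the core of the interferon-stimulated response element, GAAANNGAA, and a Y box.
B2m promoter: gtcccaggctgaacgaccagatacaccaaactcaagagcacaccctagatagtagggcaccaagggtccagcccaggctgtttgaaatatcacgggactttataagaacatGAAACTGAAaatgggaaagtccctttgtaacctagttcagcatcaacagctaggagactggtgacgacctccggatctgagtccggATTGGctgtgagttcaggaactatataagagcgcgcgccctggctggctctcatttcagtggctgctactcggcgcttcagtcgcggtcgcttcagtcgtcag
The matching stretches of H2-K1 (chr17:34000330-34000462, minus strand) and H2-D1 (chr17:35262919-35263050, plus strand) are set below. These classical heavy chains were among the members that did not pass the test, as were Psmb10, Tap2 and Tapbp. Their capitals mark the kappa-B core GGGATTCC, the core TGACGC of the X2 box and Y boxes in either direction.
H2-K1 promoter: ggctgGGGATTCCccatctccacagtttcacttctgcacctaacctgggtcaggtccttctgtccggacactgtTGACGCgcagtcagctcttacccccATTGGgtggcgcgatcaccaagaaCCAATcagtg
H2-D1 promoter: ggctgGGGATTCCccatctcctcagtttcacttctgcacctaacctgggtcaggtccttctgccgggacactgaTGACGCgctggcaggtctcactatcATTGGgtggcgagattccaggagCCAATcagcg
In an alignment of these stretches 116 of 133 columns were identical (87.2%).

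Promoter entries existed for 8 members, and Tap2 and Nlrc5 are named only. Each motif was searched on both strands over all 32851 promoter windows, by its exact letters alone. A promoter without a match may thus hold another form of the element. The stretch tttcacttc, printed for both H2-K1 and H2-D1, resembles the response element core but is not covered by its letters. The response element core GAAANNGAA was found in 1 of 8 members (B2m), against 8.56% of all windows, and the gamma-activated site TTCNNNGAA in 1 (Psmb8), against 8.3%. The Y box letters ATTGG were found in 6 of 8 members, against 37.4% of all windows. TGACGC and GGGATTCC were each found in 2 members, H2-K1 and H2-D1, against 7.4% and 1.06% of windows. These 2 genes are paralogs whose printed stretches are 87.2% identical, so their matches are not independent. Enrichment of the motifs was not tested.

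The region from H2-K1 to H2-D1 (chr17:33996017-35267499, 1.27 Mb) contains 6 of the members beside other immune and housekeeping genes. Of 138 annotated genes there, 55 were tested, of which 2 were called higher and 5 lower, and the median log2 fold change was 0.05. On chromosome 17 as a whole 43 of 716 tested genes were called higher and 28 lower, with a median of 0.02. Psmb9 and Tap1 were 2 of the 5 lower genes, and the others were Rnf5, a ubiquitin ligase, and the small RNA genes Gm23442 and Gm25128. The higher genes were Abhd16a and Lst1, and these 5 genes outside the lists are named after their values were seen. Rnf5 had a log2 fold change of -1.25 (edgeR adjusted p = 0.005), and Lst1 had one of 2.64 (edgeR adjusted p = 0.016). Gm25128 held 0 counts in both KO libraries and passed the filter on low counts only through WT.

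**Figure D3:**
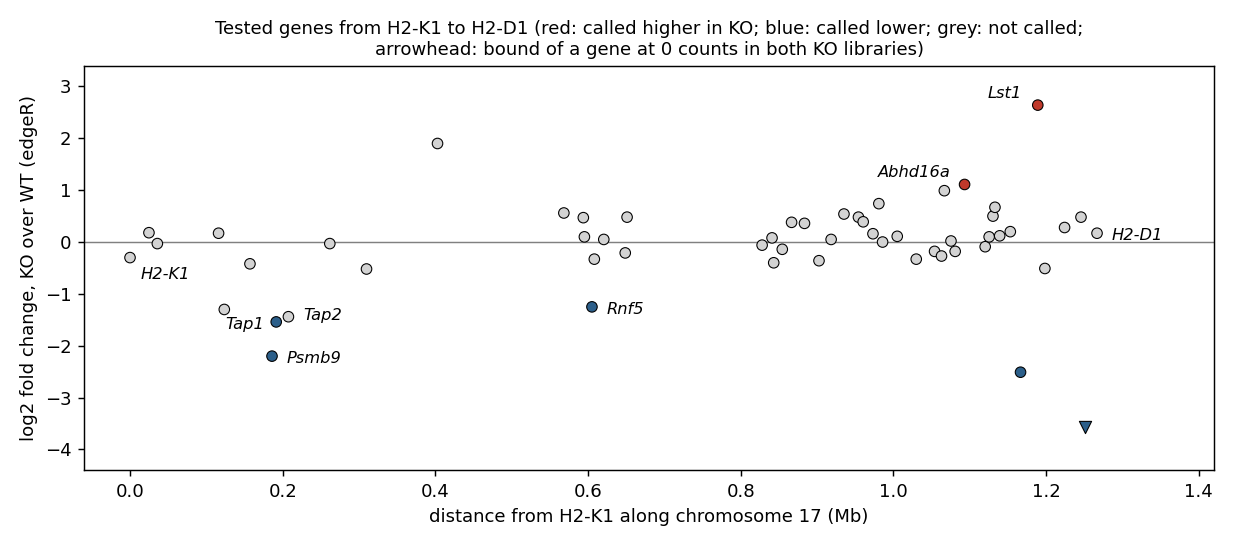
Log2 fold change, KO over WT, of the 55 tested genes from H2-K1 to H2-D1 by distance from H2-K1 along chromosome 17 in Mb, with called genes in red (higher) or blue (lower). Psmb9, Tap1 and Tap2 lie together below 0, and the median of all 55 genes is 0.05.

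Beside the classical chains, 20 other class I and class I-like chains were examined, of which 11 were tested, 2 were higher in KO and 0 lower (0 lower also at an unadjusted p under 0.05 and by DESeq2). The median log2 fold change of these 11 chains was 0.57. For these chains and the lists below, the shares of all tested genes called were 7.42% higher and 4.96% lower. At an unadjusted edgeR p under 0.05 they were 2201 and 1869 of 14427 genes. H2-Bl, a class I gene of the MHC's T region, had 54.2 and 37.4 CPM in KO against 5.34 and 8.87 CPM in WT. Its log2 fold change was 2.70 with a standard error of 0.30 (edgeR adjusted p = 0.000972). H2-M5, a chain of the M region, had 34.3 and 43.3 CPM in KO against 21.9 and 11.9 CPM in WT, a log2 fold change of 1.19 (edgeR adjusted p = 0.032, and 0.119 without KO library 2). H2-Q7, a Qa-2 chain, had 13.6 and 7.39 CPM in KO against 3.29 and 8.36 CPM in WT and overlapped between groups, with a log2 fold change of 0.87 (edgeR adjusted p = 0.256) that was 1.66 without WT library 2 (adjusted p = 0.0192). The number of these chains called higher ran from 1 to 4 with a library left out. Thus B2m, the shared light chain, and H2-Bl and H2-M5 differed in opposite directions, with the limit on paralogs given above.

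Genes for peptide loading and trimming were all tested (10 of 10), with 2 higher, 0 lower (1 at an unadjusted p under 0.05 and 0 by DESeq2) and a median of 0.20. Erap1, the aminopeptidase that trims peptides in the endoplasmic reticulum, held 32 and 26 counts in KO and 3 in each WT library. It passed the filter on low counts only through KO, so its call depends partly on the filter. The log2 fold change of Erap1 was 3.07 with a standard error of 0.64 (edgeR adjusted p = 0.0163), and the adjusted p was 0.109 without KO library 1 and 0.067 without KO library 2. The chaperone calreticulin (Calr), a part of the loading complex, had 561 and 500 CPM in KO and 356 and 331 CPM in WT, a log2 fold change of 0.63 (edgeR adjusted p = 0.0209). It was not called without KO library 1 (adjusted p = 0.192) or KO library 2 (adjusted p = 0.0674). Canx, another lectin chaperone, and the oxidoreductase Pdia3 had log2 fold changes of -0.15 and 0.07 and were not called.

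Of the 7 standard catalytic subunits, activators and assembly factors of the proteasome, 1 was higher in KO and 0 lower (1 at an unadjusted p under 0.05 and 0 by DESeq2), and the median was -0.14. The higher gene was Psme2, a subunit of the interferon-inducible PA28 activator, with 36.2 and 32.6 CPM in KO and 14.6 and 16.5 CPM in WT. Its log2 fold change was 1.15 with a standard error of 0.21 (edgeR adjusted p = 0.0097, and 0.063 without KO library 1). The immunosubunit Psmb9 had 4.34 and 2.86 counts per 100 Psme2 counts in KO, and 37.3 and 37.8 in WT, and Psmb9 was lower where its activator's subunit was higher. Pomp, which assembles proteasomes, had a log2 fold change of -0.14 (edgeR adjusted p = 0.544).

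Among 15 transcription factors that act at class I or interferon-responsive promoters, 14 were tested, 3 were higher and 1 lower, with a median of -0.01. Irf1, a factor known to activate Tap1 and Psmb9, had 94.7 and 101 CPM in KO against 21.8 and 32.1 CPM in WT. The log2 fold change of Irf1 was 1.87 with a standard error of 0.21 (edgeR adjusted p = 0.00107), and it stayed between 1.62 and 2.15 and called with each library left out. Irf1 was therefore higher in the same libraries in which Psmb9 and Tap1 were lower. Irf9, a part of the complex that answers type I interferon, had 28.1 and 25.3 CPM in KO and 12.4 and 12.6 CPM in WT, a log2 fold change of 1.10 (edgeR adjusted p = 0.0154). The adjusted p of Irf9 was 0.101 without KO library 1 and 0.0533 without KO library 2. Creb1, which binds the X2 box, was higher (log2 fold change 0.94, edgeR adjusted p = 0.0135, and 0.0559 without KO library 1). Nfkb1, the p50 precursor, was lower, with 14.9 and 17.8 CPM in KO and 33.2 and 27.6 CPM in WT. Rela, another factor of this list, lay the other way, with 28.5 and 34.3 CPM in KO and 20.5 and 20.3 CPM in WT. It was not called (edgeR adjusted p = 0.0837). The log2 fold change of Nfkb1 was -0.90 (edgeR adjusted p = 0.0336), and the adjusted p rose to 0.243 and 0.105 when KO library 1 or 2 was left out, and to 0.0598 for WT library 1. Nfyb, a subunit of the Y box factor NF-Y, and Atf1 had log2 fold changes of -0.25 and -0.01 and were not called. Of all called genes of the lists examined, Irf9, Creb1, Erap1 and Oasl2 each held at least 1 of the seed matches in the 3′ UTR.

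None of 9 interferon receptors, Janus kinases and SOCS inhibitors was called by edgeR, with 2 higher and 1 lower at an unadjusted p under 0.05 and 0 called by DESeq2. Their median was -0.04. Jak1 and Tyk2, kinases of the interferon receptors, had log2 fold changes of -0.04 and -0.16. Socs3, an inhibitor of cytokine signalling that responds to LIF, had 202 and 254 CPM in KO and 229 and 566 CPM in WT, and WT library 2 stood above the other libraries. Its log2 fold change was -0.79 (edgeR adjusted p = 0.148), against -1.30 without WT library 1 (adjusted p = 9.97e-05). Leaving out WT library 2 instead gave -0.03 (adjusted p = 0.928).

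Of 20 interferon-stimulated genes, 9 were tested, 4 were higher in KO and 0 lower (0 at an unadjusted p under 0.05 and 0 by DESeq2), and the median was 1.90. Oasl2, an antiviral gene of the 2-5A synthetase family, held 60 and 42 counts in KO and 0 in both WT libraries, at least 30.7-fold higher when WT is set to the floor of 3 counts for the group as a whole (edgeR adjusted p = 0.00242). By the same floor Ifit1, which binds foreign RNA, was at least 10.5-fold higher (13 and 22 counts against 0, edgeR adjusted p = 0.0143). Without KO library 2, Ifit1 did not pass the filter. Gbp2, a guanylate-binding protein, was at least 7.82-fold higher (13 counts in each KO library against 0, edgeR adjusted p = 0.0172), with an adjusted p of 0.0568 without WT library 1. Gbp2 did not pass the filter without either KO library. Ifitm3, an antiviral membrane protein, had 719 and 764 CPM in KO against 346 and 144 CPM in WT, a log2 fold change of 1.59 (edgeR adjusted p = 0.0161). The DESeq2 test gave Ifitm3 an adjusted p of 0.069, and the size of its change ranged from 1.08 without WT library 2 to 2.38 without WT library 1 on the log2 scale. Bst2 had a log2 fold change of -0.57 and was not called (edgeR adjusted p = 0.207). The 4 called interferon-stimulated genes were thus higher in the libraries in which Psmb9, Tap1 and B2m were lower. Of these 4, Oasl2, Ifit1 and Gbp2 held 0 counts in WT and passed the filter on low counts only through KO. Irgm1 and Rsad2, which were tested but not called, also passed it only through KO. The median of 1.90 is the value of Irgm1 itself. The calls of Oasl2, Ifit1 and Gbp2 and this median therefore depend on the filter. Of the 20 genes, 11 had too few counts to be tested.

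**Figure D4:**
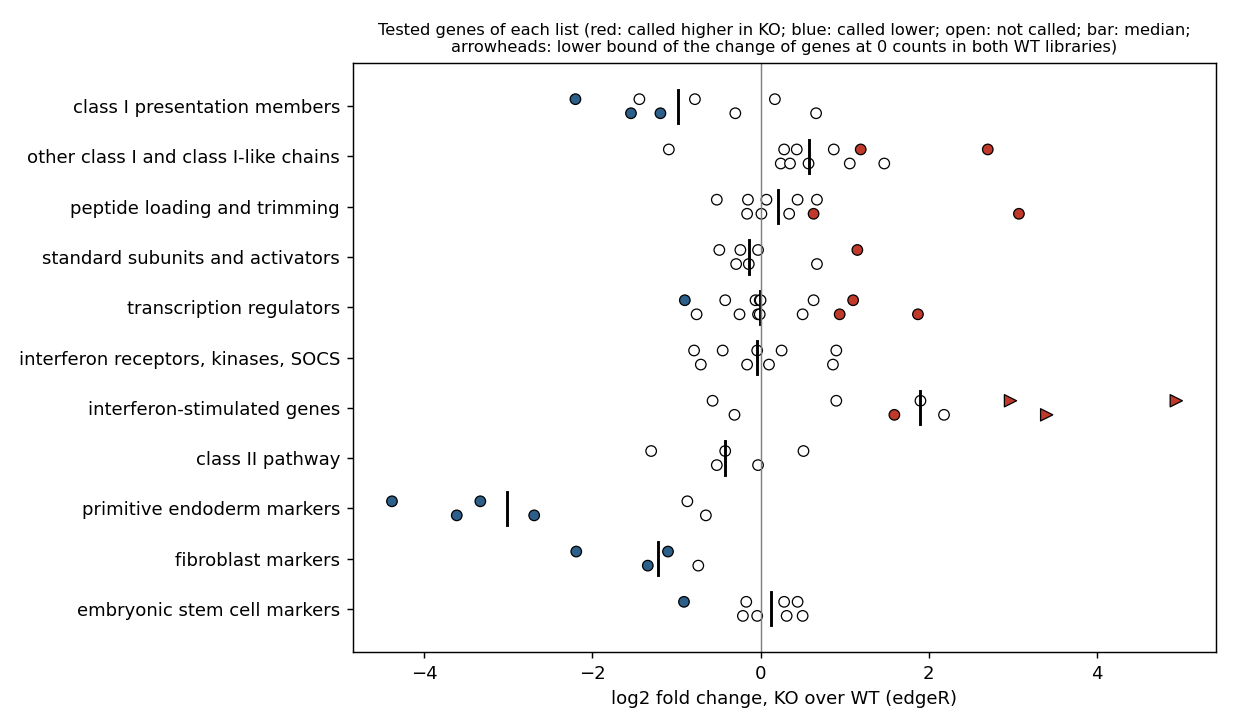
Log2 fold change, KO over WT, of the tested genes of each list, with called genes in red (higher) or blue (lower), arrowheads for genes at 0 counts in WT drawn at their lower bound, and a bar at the median. The members' median lies at -0.98. That of the interferon-stimulated genes lies at 1.90 and rests partly on genes that passed the filter only through KO.

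Markers of other cells that such a culture could hold were examined. Of 6 primitive endoderm markers, all tested, 4 were lower in KO (Gata6, Sox17, Dab2 and Pdgfra) and 0 higher (0 at an unadjusted p under 0.05 and 0 by DESeq2), and their summed level was 9.82 and 9.43 CPM in KO against 64.4 and 56.0 CPM in WT. Dab2 had a log2 fold change of -4.38 (edgeR adjusted p = 0.000192), Pdgfra of -3.61, Gata6 of -3.33 and Sox17 of -2.69 (adjusted p = 0.0504 without KO library 2 for Sox17). Gata4 had 4.71 and 2.8 CPM in KO and 5.43 and 6.45 CPM in WT and was not called (edgeR adjusted p = 0.333). Pdgfra had 0.314 and 0.34 CPM in KO and passed the filter on low counts only through WT. Its call thus depends partly on the filter. Sox17 was also low in KO, at 0.864 and 0.595 CPM. Of 7 fibroblast markers 4 were tested and 3 were lower (Thy1, Col1a1 and Col5a1), with summed levels of 17.3 and 29.4 CPM in KO and 44.0 and 68.8 CPM in WT. Col1a1 had 0.393 and 0.34 CPM in KO and likewise passed the filter only through WT. Of these fibroblast markers 0 were called lower without KO library 1, and 1 without KO library 2, WT library 1 or WT library 2. The count was also 1 with library totals and with the replicate block, 2 by DESeq2 and 0 at a mean of at least 10 CPM. Pdgfrb, a receptor of mesenchymal cells, had a log2 fold change of -0.74 (edgeR adjusted p = 0.381). Of the markers not tested, Col3a1 and Postn held 0 counts in all libraries, and Col1a2 held 4 in WT library 1 and 0 elsewhere. None of the immune markers was called by edgeR, at an unadjusted p under 0.05 or by DESeq2 (0 of 2 tested), their summed level of 60.9 to 98.7 CPM was mostly Laptm5, and the leukocyte gene Ptprc held 1 count in WT library 2 and 0 elsewhere. Coro1a had a log2 fold change of -0.92 (edgeR adjusted p = 0.263), and Cd52 held 1 to 5 counts a library. Of 3 endothelial markers 1 was tested (Kdr) and 0 were called by edgeR (0 also at an unadjusted p under 0.05 and by DESeq2), with summed levels of 1.96 and 3.23 CPM in KO and 8.39 and 1.51 CPM in WT. Kdr held 97 counts in WT library 1 against 10 to 31 in the other libraries and was called lower in the fit without WT library 2 (-1.97), and Tie1 and Cdh5 held at most 6 counts in any library. Among the 8 embryonic stem cell markers Utf1 was lower (log2 fold change -0.91, edgeR adjusted p = 0.00568, and 0.0559 without KO library 1). The pluripotency genes Sox2 and Nanog had log2 fold changes of 0.44 (edgeR adjusted p = 0.0909) and 0.31 (edgeR adjusted p = 0.154), and Tdgf1 of -0.21 (edgeR adjusted p = 0.452). The part of the primitive endoderm and fibroblast markers in the lower levels of Psmb9, Tap1 and B2m was not tested.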

How the data were processed

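RNA was extracted with Trizol, and libraries were made with the QuantSeq 3' FWD kit, per the labels' protocols, so reads lie near the 3' ends of transcripts. The deposited file is a single table of raw, whole-number read counts by Ensembl gene, not normalized. Per the submitters' processing notes, Trim Galore and GRCm38 were used. Aligner, counting tool, strandedness and annotation: not given in the sources used here.

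Genes were named with GENCODE vM21, which held 55240 of 55421 identifiers. The other 181 held 0.0025% of counts. The KO and WT libraries were fitted with edgeR 4.0.16 (R 4.3.3; quasi-likelihood F test, two-sided, TMM, filterByExpr, Benjamini-Hochberg over 14427 genes). The standard error is the log2 fold change over the square root of F. The biological coefficient of variation was 0.198. A chi-square of counts per degree of freedom gave 11.3 within KO, 18.9 within WT and 37.1 to 45.4 between groups. The script was checked on simulated counts. Promoters and microRNAs came from RefSeq (GRCm38.p6).

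Members and lists were chosen with earlier results of these data known. All 10 members are named. Of every other list, the called genes and the 3 with the highest mean CPM are named and compared under the alternatives below. Some other genes are named without that comparison. Alternatives were DESeq2 1.42.0 size factors, library totals, the DESeq2 test, no filter, a mean of at least 10 CPM, a replicate block and each library left out.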

Additional observations from a re-analysis of the deposited data

How the results depend on the processing

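Across 77 alternatives for the 8 tested members, 67 kept the direction and side of the threshold, 6 lost a call, 2 gained one and 2 changed sign. For the other 46 named genes these were 381, 34, 10 and 13 of 438. The number of members called lower (3) was 3 with DESeq2 size factors, library totals and the DESeq2 test, 4 with no filter and 1 at a mean of at least 10 CPM, where Psmb9, Tap1 and Tap2 were not tested. It ran from 1 to 4 with a library left out, and 0 members were called higher under any alternative. Genes called higher (1071) numbered 636 at a mean of at least 10 CPM and 556 to 1477 with a library left out. Genes called lower (715) numbered 1193 with no filter, 391 at a mean of at least 10 CPM and 285 to 1011 with a library left out.

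Same-numbered KO and WT libraries share only a number in the labels. Over the tested genes, the difference between the KO libraries had a correlation of -0.0703 with the difference between the same-numbered WT libraries. With the replicate block 638 genes were higher, 370 lower and 2 members lower, Tap1 not being called (log2 fold change -1.54, adjusted p = 0.0789). The block also ended the calls of Gbp2 (0.0595), Nfkb1 (0.0762) and H2-M5 (0.0728), and Atf1 turned to 0.01.

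With a library left out, log2 fold changes that changed sign ran from -0.61 to 0.10 for H2-K1, -0.06 to 0.43 for H2-D1, -0.05 to 0.19 for Pdia3, -0.28 to 0.31 for Atf1 and -0.16 to 0.09 for Jak1. They ran from -0.03 to 0.91 for Cd74, -0.18 to 1.27 for H60b, -0.20 to 0.56 for Ulbp1, -0.06 to 0.58 for Laptm5 and -1.97 to 1.04 for Kdr. Over the same fits the number called higher ran from 1 to 4 for the other class I chains, 0 to 3 for loading and trimming, 0 to 2 for proteasome subunits and activators, 1 to 4 for transcription factors and 2 to 4 for interferon-stimulated genes (7 with no filter). The cause was not tested. Depth limits Psmb8 and Nlrc5 in particular.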

Other observations

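MHC class II genes, which present peptides from outside the cell, were low in these cells. Of 11, 5 were tested and 0 were called by edgeR or DESeq2 (1, H2-DMa, at an unadjusted p under 0.05), with summed levels of 11 and 12.6 CPM in KO and 14.3 and 20.4 CPM in WT. H2-DMa, a chain of the class II peptide exchanger, had 3.3 and 1.95 CPM in KO and 4.11 and 9.07 CPM in WT, a log2 fold change of -1.30 (edgeR adjusted p = 0.116, and 0.0274 with no filter). H2-DMb1, its partner, and Cd74, the invariant chain, had log2 fold changes of -0.42 and 0.51. The class II transactivator Ciita held 3 counts in all.

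Ligands of the natural killer cell receptor NKG2D were also few. Of 8 symbols 5 were in the table and 2 were tested, and 0 were called by edgeR, at an unadjusted p under 0.05 or by DESeq2. Ulbp1 had 6.52 and 8.75 CPM in KO and 5.1 and 8.87 CPM in WT, and H60b had a log2 fold change of 0.70 (edgeR adjusted p = 0.534). Raet1e held 13 and 2 counts in KO and 9 and 8 in WT.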
